A study of Mus musculus with 18 samples.

Results

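The genes described here are 10 members of bone morphogenetic protein (BMP), growth differentiation factor and myostatin signalling, measured in mouse whisker pad after facial nerve transection. They were chosen by name for their known place in this pathway, with earlier results of these data known, so their tests are not independent of the choice. They are the ligands Gdf5 and Mstn, the extracellular inhibitors Fst and Nog, and the receptor Acvr2b. The others are the inhibitory SMADs Smad6 and Smad7 and the target genes Id1, Id2 and Id3. All 10 were found among the 35150 genes with a summed value, and each was given a level by adding the normalized TPM (a share of all transcripts, corrected for length) of its Ensembl transcripts. The 18 samples were skin with muscle, punched from the rostral whisker pad of 9 adult mice. Their genotype is not given in the sources used here. The study used mice of both sexes and does not give the sex of these 9. In every mouse the facial nerve had been cut on the right, at its buccal and superior marginal branches (denervated), and on the left the skin had only been opened and closed again (sham). Tissue was taken from both sides of 3 mice at each of days 1, 3 and 7. No sample came from an unoperated mouse, and because the lesion was always on the right, side of the face and lesion cannot be told apart.

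BMP and GDF ligands bind type I and type II serine-threonine kinase receptors and signal through SMAD1 and SMAD5 to switch on Id genes, while myostatin, activins and TGF-beta signal through SMAD2 and SMAD3. In skeletal muscle the 2 arms are known for opposite effects on mass: myostatin limits fibre growth, and BMP-type signalling counters the wasting that follows loss of the nerve. Gdf5 is a BMP-type ligand best known from joint and tendon development and is a known denervation-responsive gene of limb muscle. Follistatin (Fst) traps myostatin and activins outside the cell, and noggin (Nog) traps BMPs.

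The main result lay in a single ligand, Gdf5. Gdf5 was nearly silent on the sham side and was higher on the denervated side in all 9 mice, whereas none of the inhibitors, the receptor and the target genes passed the test. Of these, Fst (0.68 on the log2 scale) and Acvr2b (-0.76) had the largest day 7 differences. Myostatin (Mstn) was lower on the denervated side in 8 of 9 mice, without passing the test. Outside the 10 members, the signal transducer Smad3 and the transcription factor gene Atoh8 rose over all days and were higher on the denervated side of all 9 mice.

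The libraries were estimated to hold 10400000 to 32600000 reads, from the size of the smallest steps in their values. Bulk tissue was measured, so more RNA per cell and more cells of a type cannot be told apart. The skeletal muscle markers (8 genes, none at 0 in any sample) and the keratinocyte markers were abundant in every sample, as the label skin and muscle states. The sham sample of day 1, replicate 1 held the least muscle RNA, with a summed muscle marker level of 3580 TPM against up to 18700 TPM in the other sham samples of that day.

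The 250 bases before the annotated start are shown for 3 genes on which the results turn: Mstn, Smad3 and Atoh8. Mstn was lower in 8 of 9 mice without passing the test, and Smad3 and Atoh8 rose. The sequences are from RefSeq on build GRCm38.p6, and they run 5' to 3' on the strand of the gene. Mstn lies at chr1:53061390-53061639 on the plus strand, Smad3 at chr9:63757995-63758244 and Atoh8 at chr6:72235578-72235827, both on the minus strand. Capitals mark matches, on either strand, to CANNTG, the E-box read by basic helix-loop-helix factors, and to CAGAC, a SMAD-binding sequence.
Mstn: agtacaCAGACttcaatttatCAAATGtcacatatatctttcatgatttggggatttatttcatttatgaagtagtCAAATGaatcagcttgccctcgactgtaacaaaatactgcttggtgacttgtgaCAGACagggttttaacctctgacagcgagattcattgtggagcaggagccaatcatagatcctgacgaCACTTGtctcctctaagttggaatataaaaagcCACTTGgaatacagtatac
Smad3: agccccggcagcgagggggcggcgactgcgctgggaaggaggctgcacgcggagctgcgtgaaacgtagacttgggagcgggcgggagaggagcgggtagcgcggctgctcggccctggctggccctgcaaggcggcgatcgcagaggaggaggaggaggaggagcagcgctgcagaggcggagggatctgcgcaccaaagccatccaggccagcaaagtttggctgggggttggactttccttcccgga
Atoh8: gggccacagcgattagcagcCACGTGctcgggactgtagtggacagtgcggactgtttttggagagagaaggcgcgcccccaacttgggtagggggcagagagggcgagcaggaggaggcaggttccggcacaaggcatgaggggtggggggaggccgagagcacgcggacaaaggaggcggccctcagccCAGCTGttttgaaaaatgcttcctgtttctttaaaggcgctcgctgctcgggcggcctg
The Mstn window held 4 E-boxes and 2 CAGAC matches, the Atoh8 window 2 E-boxes and no CAGAC, and the Smad3 window neither. The E-box occurred in 66.2% of the 32851 windows of this length and CAGAC in 42.2%, and no matches of the 2 motifs overlapped in the 3 windows. At least 3 E-boxes, as in Mstn, stood in 12.2% of windows. G and C made up 38.4% of the Mstn window, 69.2% of the Smad3 window and 63.2% of the Atoh8 window. Of the other members, Id2 had 1 E-box and no CAGAC, Id3 2 CAGAC matches and no E-box, Acvr2b 1 CAGAC match, and Smad6 neither. A window was matched for 5 of the 10 members, and not for Gdf5, Fst, Nog, Id1 and Smad7.

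Gdf5 (ENSMUSG00000038259, GRCm38 chromosome 2, 155941023 to 155945367, minus strand) had 1 transcript in the table, of 2320 bases. At day 1 the sham samples had 0.274, 0.133 and 0 TPM and the denervated samples of the same mice 2.09, 7.79 and 3.71 TPM. At day 3 the sham levels were 0.366, 0.377 and 0.319 TPM and the denervated levels 14.4, 31.1 and 11.8 TPM. At day 7 they were 0.694, 0.339 and 0.35 TPM against 10.6, 12.8 and 9.59 TPM. The sides did not overlap at any day, and every sham sample lay under 1 TPM while every denervated sample lay above 2 TPM. The sham values stood for about 0 to 18 reads a library and the denervated values for about 110 to 582 reads. Gdf5 therefore entered the tests, which asked for 1 TPM in 47% of samples, only through the side on which it was high.

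In means, Gdf5 was 0.136 ± 0.137 TPM (SD, n = 3) on the sham side and 4.53 ± 2.93 TPM on the denervated side at day 1. At day 3 the means were 0.354 ± 0.0304 and 19.1 ± 10.5 TPM, and at day 7 they were 0.461 ± 0.202 and 11 ± 1.65 TPM. Differences between sides were tested on log2(TPM + 0.5), a scale that understates the change of a gene this low on one side, with limma across all genes and Benjamini-Hochberg adjustment. On this scale Gdf5 rose by 4.39 (SE 0.35) at day 3, with an adjusted p of 0.0040, and by 3.59 (SE 0.21) at day 7, with an adjusted p of 0.0021. At day 1 the difference was 2.84 (SE 0.45), and the adjusted p was 0.43 although every mouse was higher. In the day 1 comparison 0% of all genes tested passed (0 of 14776; 634 had an unadjusted p under 0.05, and 0 passed with mouse as a block), so no gene was called there. The background was 1.45% at day 3 (217 of 14943 genes) and 1.53% at day 7 (230 of 15081 genes). Gdf5 was the only one of the 10 members called, at day 3 and at day 7. It had entered both tests only through the denervated side, on which it was high.

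The calls at single days rested on 6 samples each. The day 3 call of Gdf5 was lost without replicate 1 (adjusted p 0.053) or replicate 3 (0.090), and the day 7 call without replicate 1 (0.070) or replicate 2 (0.092). The differences themselves stayed between 4.01 and 4.64 at day 3 and between 3.40 and 3.78 at day 7. Over all days, with a term for day, Gdf5 rose by 3.61 (SE 0.26) with an adjusted p of 9.07e-07 by limma, and it kept an adjusted p of at most 2.96e-05 whichever mouse was left out. In that comparison 3.1% of 14757 genes passed. With a term for each mouse it had an adjusted p of 1.08e-04.

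**Figure D1:**
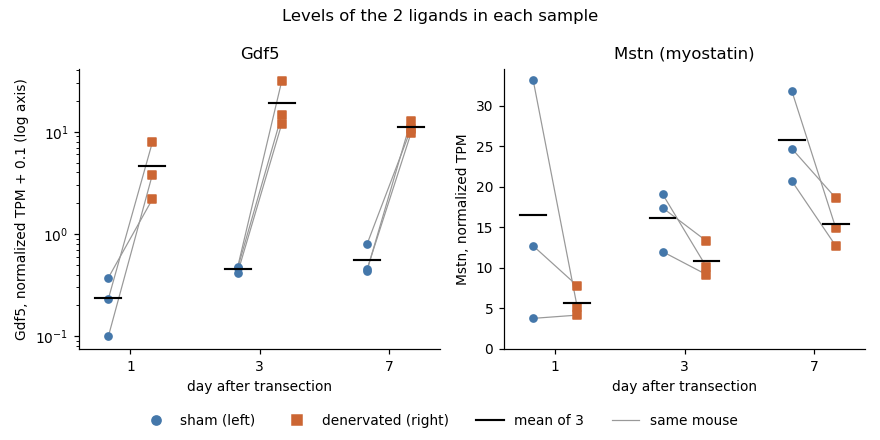
Normalized TPM of Gdf5 (left, TPM + 0.1 on a log axis) and Mstn (right, linear axis) against day after transection. Circles are sham and squares denervated samples, grey lines join the sides of 1 mouse and black bars are means of 3. All 9 Gdf5 lines run upward from under 1 TPM, and 8 of 9 Mstn lines run downward.

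Taken within mice, the right minus left difference of Gdf5 was 1.75 to 3.71 at day 1, 3.90 to 5.17 at day 3 and 3.22 to 3.99 at day 7. Its mean over 9 mice was 3.61 ± 0.93 (SD). An exact two-sided sign-flip permutation test over the 9 mice gave p = 0.0039, the smallest that 9 mice allow, which 496 genes shared, and adjusted over all 14757 genes it was 0.12. The denervated effect was 1.55 (SE 0.54) larger at day 3 than at day 1, with an unadjusted limma p of 0.011 and an adjusted p of 0.36. The effect at day 7 minus that at day 3 was -0.80 (SE 0.54), with a limma adjusted p of 0.83. Of the 10 members, 0 had a limma effect that differed between days after adjustment, with 2, 0 and 2 at an unadjusted p under 0.05 between days 3 and 1, 7 and 1, and 7 and 3, and 0 also with mouse as a block. Of all genes, 0.122% passed between days 3 and 1, 0.163% between days 7 and 1, and 0% between days 7 and 3 (1013 at an unadjusted limma p under 0.05, and 1 gene called with mouse as a block).

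The marker lists of some other cell types were also higher on the denervated side at the days when Gdf5 was called. The summed tendon markers (Scx, Tnmd and Mkx) were 1.66 to 3.19 times the sham level at day 3 and 2.97 to 4.11 times at day 7, in all 3 mice each day. At day 1, when Gdf5 was already higher in 3 of 3 mice, the tendon ratio was 0.612 to 2.23 and only 1 mouse was above 1. Scx, a transcription factor gene of tendon cells, made up most of the denervated level at days 3 and 7: at day 3 it lay between 31.7 and 92.3 TPM there and between 6.56 and 7.61 TPM on the sham side. The other 2 tendon genes overlapped between sides at every day, with Tnmd higher in 1 of 3 mice at day 3 and 2 of 3 at day 7, and Mkx in 2 of 3 and 1 of 3. The satellite cell list (Pax7, Myf5 and Cdh15) was 3.13 to 6.32 times the sham level at day 3 and 1.4 to 2.74 times at day 7. Cdh15 carried most of that list, at a mean of 12 TPM denervated and 2.04 TPM sham at day 3. Pax7, the defining satellite cell gene, was near 0 and overlapped, at 0.222 and 0.192 TPM. Myf5 was also low but was higher in 3 of 3 mice at days 3 and 7. Its day 3 means were 1.16 TPM denervated and 0.7 TPM sham, without overlap. The chondrocyte list was 2.41 to 4.68 times the sham level at day 7 and 0.699 to 2.33 times at day 3. Nearly all of it was Comp, with the defining cartilage gene Col2a1 at a mean of 0.631 TPM. At day 7 Col2a1 (0.97 against 0.418 TPM sham) and Acan (0.992 against 0.4 TPM) were also higher in 3 of 3 mice, and Col9a1 in 1 of 3. No marker gene was at 0 in any sample, and the part of these cells in the Gdf5 result was not tested.

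**Figure D2:**
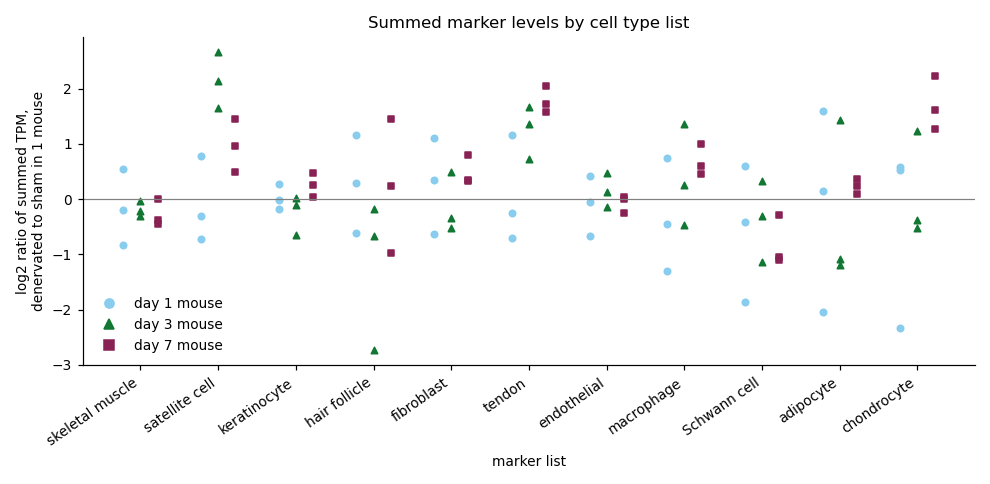
Log2 ratio of the summed TPM of each of 11 marker lists, denervated to sham, with 1 point per mouse, coloured by day. Tendon and satellite cell points lie above 0 for all mice of days 3 and 7, and skeletal muscle points lie below 0 at both of those days.

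The genes whose 9 within-mouse differences followed those of Gdf5 most closely, of 14757 tested, were Svbp (Pearson r = 0.95), Upf3b (0.95), Akip1 (0.93), Tbc1d8 (0.92) and Eny2 (0.92). Their own mean differences were small, from -0.09 for Upf3b to 0.46 for Eny2, against 3.61 for Gdf5. These r values describe 9 mice of 3 days, whose day means differ, and they were the highest of many. Among the other members, the difference of Nog followed that of Gdf5 most closely (r = 0.60), and that of Mstn did not follow it (r = -0.03).

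Myostatin (Mstn; chromosome 1, 53061640 to 53068079) is the muscle-secreted ligand that limits fibre growth. At day 1 its sham levels were 3.77, 12.7 and 33.1 TPM, and its denervated levels 4.17, 7.8 and 5.18 TPM. At day 3 they were 12, 17.4 and 19.1 against 9.16, 13.3 and 10.1 TPM, and at day 7 they were 24.7, 31.8 and 20.7 against 18.6, 14.9 and 12.7 TPM. The sides overlapped at days 1 and 3 and not at day 7. The difference on the log2 scale was -1.04 (SE 0.72) at day 1, -0.54 (SE 0.21) at day 3 and -0.72 (SE 0.20) at day 7, with limma adjusted p-values of 0.999, 0.32 and 0.21. Over all days it was -0.77 (SE 0.28), with an adjusted p of 0.18 by limma, or 0.097 with mouse as a block. Within mice the mean was -0.77 ± 0.76 (SD, n = 9), and the exact sign-flip permutation p was 0.0078, or 0.13 adjusted over all genes.

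At day 1 the Mstn levels of the 3 sham samples had the same order as their muscle markers. Their muscle marker factors (geometric mean of 8 markers relative to all samples) were 0.298, 1.12 and 1.62 in the order of replicates. The sham factors were 1.04, 1.11 and 1.08 at day 3 and 1.65, 1.63 and 1.32 at day 7. At neither of these days was that the order of the Mstn levels. The part of muscle amount in the Mstn differences was not tested. Day 1 replicate 1, whose sham sample had the least muscle, was the only mouse in which Mstn was not lower. Without that mouse the difference over all days was -0.88, with a limma adjusted p of 0.025. Mstn was then among 692 of 14772 genes called. Without day 1 replicate 3, whose own difference was -2.57, the value was -0.27 at day 1 and -0.54 over all days (limma adjusted p 0.20). The summed muscle markers were themselves 0.806 to 0.978 times the sham level at day 3 and 0.735 to 0.997 times at day 7. With every sample rescaled to its muscle markers, the Mstn difference was -0.80 at day 1, -0.17 at day 3, -0.49 at day 7 and -0.49 over all days, none called. The 8 markers did not move together at day 7. Ckm (-1.12), Pygm (-0.54), Tnnc2 (-0.53), Mylpf (-0.38) and Tcap (-0.17) were lower, and Des (0.42), Acta1 (0.37) and Actn2 (0.15) higher. The rescaling therefore cannot tell the amount of muscle from a change of the markers themselves. The same rescaling moved the median of all genes from 0.01 to 0.27 over all days. The transcript that carried most of the gene's TPM (91.0%) gave -0.77 over all days.

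**Figure D3:**
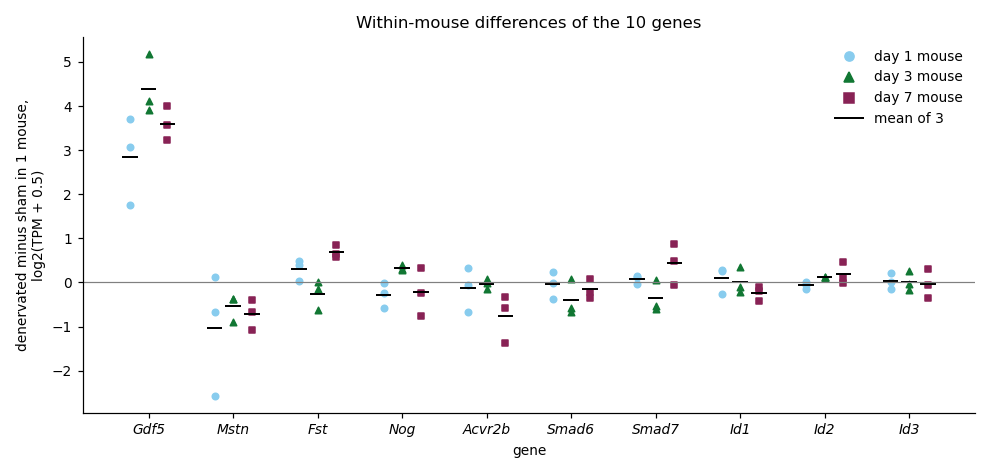
Denervated minus sham difference of log2(TPM + 0.5) in each of 9 mice for the 10 genes, coloured by day, with bars at the mean of 3. Gdf5 stands alone at 1.75 to 5.17, Mstn lies below 0 in 8 mice, and the other genes spread around 0.

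Follistatin had the clearest day-to-day pattern of the inhibitors, though no difference was called. At day 1 its sham levels were 16, 17.5 and 18.5 TPM and its denervated levels 21.2, 24.8 and 18.9 TPM. At day 3 they were 21.6, 15.4 and 18.4 against 13.8, 15.5 and 16.6 TPM, and at day 7 they were 17.4, 13.4 and 17.1 against 27.3, 24.4 and 25.5 TPM. The sides did not overlap at days 1 and 7, with the denervated side above, and they overlapped at day 3. The difference was 0.31 (SE 0.13) at day 1, -0.26 (SE 0.15) at day 3 and 0.68 (SE 0.14) at day 7, where the limma adjusted p was 0.079. When the day 7 effect was estimated in a limma fit of all 18 samples the adjusted p was 0.018. That fit called 267 of 15081 genes. The effect at day 7 was 0.94 (SE 0.19) above that at day 3, with an unadjusted limma p of 0.00024 and an adjusted p of 0.30 over all genes. The day 1 difference rested on which transcripts were counted: the transcript with the highest mean, 43.0% of the gene, gave -0.13, and a shorter one, 39.6% of the gene, had means of 4.58 TPM sham and 9.95 TPM denervated.

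Noggin was low throughout, at 2.42 to 6.06 TPM, or about 49 to 137 reads a library. Its denervated level was below the sham level in all 3 mice at day 1, by 0.01 to 0.58 on the log2 scale. At day 3 it was above the sham level in all 3 mice, at 4.7, 5.03 and 4.08 TPM against 3.74, 4.06 and 3 TPM, and the sides did not overlap. The limma adjusted p was 0.999 at day 1 and 0.42 at day 3, and the difference between these days was 0.59 (SE 0.32), with an adjusted p of 0.62. At day 7 1 of 3 mice was higher.

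Acvr2b, the type II receptor that binds myostatin and activins, was close to the detection filter, at 0.676 to 3.14 TPM and 14 to 63 estimated reads a library. At day 7 the sham samples had 2.55, 1.46 and 1.69 TPM and the denervated samples 0.676, 1.05 and 0.976 TPM, so the sides did not overlap, and the gene passed the filter there only through the sham side. The difference of -0.76 (SE 0.27) had a limma adjusted p of 0.32 and was -0.45 without replicate 1. Retained-intron transcripts weighed heavily in this gene: a single one carried 39.5% of its TPM and had day 7 means of 1.16 TPM sham and 0.295 TPM denervated. Its main protein-coding transcript, with 35.2%, had 0.513 and 0.481 TPM. At days 1 and 3 the sides overlapped.

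**Figure D4:**
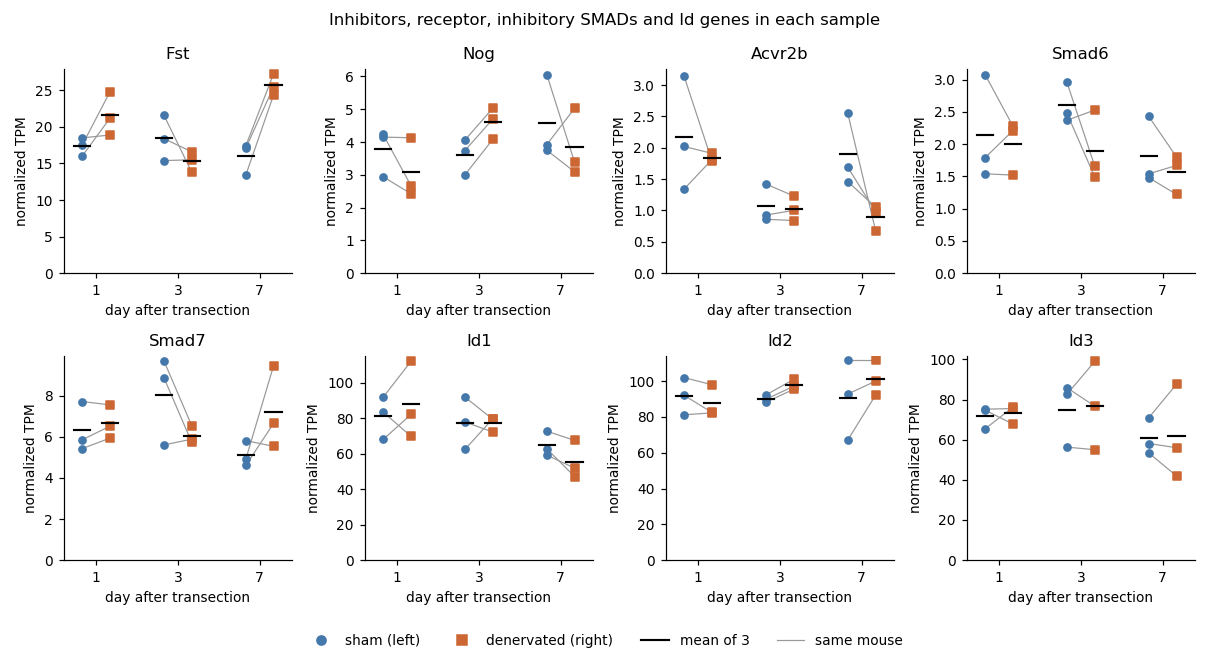
Normalized TPM of the other 8 members against day, with circles for sham, squares for denervated samples, grey lines joining the sides of 1 mouse and black bars at means of 3. Fst squares lie above all circles at day 7, Acvr2b squares lie below all circles at day 7, and the Id genes stay between 41.9 and 112 TPM with mixed lines.

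The inhibitory SMADs are switched on by the pathway and then block it. Smad6 had 1.22 to 3.08 TPM in all samples, and its difference ran from -0.40 (SE 0.22) at day 3 to -0.04 (SE 0.27) at day 1. Smad7 had 4.61 to 9.7 TPM, and its difference was 0.08 at day 1, -0.35 at day 3 and 0.43 at day 7. Neither gene was called at any day or over all days, and their limma adjusted p-values were 0.47 or higher. For Smad7 the effect at day 7 exceeded that at day 3 by 0.79 (SE 0.29), with an adjusted p of 0.65 by limma.

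The Id genes encode helix-loop-helix proteins that block basic helix-loop-helix factors and are the standard readout of BMP signalling. They were among the most abundant members and stayed near the sham level. Id1 averaged 81.1 ± 12.1 TPM (SD, n = 3) sham and 88 ± 21.7 TPM denervated at day 1, 77.4 ± 14.7 and 77.1 ± 4.25 TPM at day 3, and 64.9 ± 6.97 and 55.5 ± 10.7 TPM at day 7. At day 3, when Gdf5 was highest, its log2 difference was 0.01 (SE 0.15). Id2 had 92.3, 89.9 and 88.2 TPM sham and 101, 97.2 and 95.5 TPM denervated at day 3. It was higher in all 3 mice there without overlap, by 0.12 (SE 0.08), with a limma adjusted p of 0.55. Id3 differed by 0.03, 0.02 and -0.03 at days 1, 3 and 7. Over all days the differences were -0.04 (SE 0.11) for Id1, 0.08 (SE 0.09) for Id2 and 0.01 (SE 0.14) for Id3, with limma adjusted p-values of 0.93, 0.76 and 0.99. These directions depended on the scaling: relative to muscle markers they were 0.24, 0.36 and 0.29, against a median of 0.27 for all genes, none called.

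Across the 10 members the median difference was -0.01 at day 1, -0.01 at day 3, -0.09 at day 7 and -0.02 over all days, beside medians over all genes of 0.01, -0.01, 0.04 and 0.01. Fitted with mouse as a block, the same number of members was called in each comparison.

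The wider pathway was read from 80 further genes, listed with earlier results known. Of these, 60 were tested at day 1, 62 at day 3, 65 at day 7 and 61 over all days. None was called at day 1 (3 had an unadjusted limma p under 0.05, and 0 passed with mouse as a block), 2 rose at day 3, 2 rose at day 7 and 4 rose over all days, and none fell. That is beside 1.45%, 1.53% and 3.1% of all genes called in the last 3 comparisons. With mouse as a block the counts were 2, 1 and 2. The median difference of the list was 0.02 at day 1, -0.07 at day 3, 0.09 at day 7 and 0.02 over all days.

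Smad3, the SMAD that carries myostatin, activin and TGF-beta signals, showed the most even change. At day 1 it had 6.32, 8.73 and 8.94 TPM sham and 14, 22.1 and 23.8 TPM denervated. At day 3 the levels were 9, 9.74 and 10.9 against 20.1, 20.9 and 21 TPM, and at day 7 they were 12.4, 11.9 and 10.4 against 24.2, 22.2 and 27 TPM. The sides did not overlap at any day. Smad3 rose by 1.03 (SE 0.10) at day 3, by 1.05 (SE 0.13) at day 7 and by 1.11 (SE 0.10) over all days, with limma adjusted p-values of 0.0087, 0.012 and 1.03e-05. The day 1 difference of 1.25 (SE 0.24) was not called (limma adjusted p 0.68), though it was when estimated from all 18 samples (0.0058). Within mice the mean was 1.11 ± 0.19 (SD, n = 9), higher in 9 of 9, with an exact sign-flip permutation p of 0.0039 and 0.12 after adjustment over all genes. The calls at days 3 and 7 were lost whichever mouse of that day was left out, and the call over all days was kept whichever mouse was left out.

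Atoh8, a basic helix-loop-helix transcription factor gene known as a BMP target, was the only called gene of the 8 listed targets. Its sham levels at day 1 were 2.8, 3.88 and 6.12 TPM and its denervated levels 12.8, 18.2 and 12.9 TPM. At day 3 they were 4.81, 4.91 and 3.25 against 10.5, 8.6 and 8.46 TPM, and at day 7 they were 4.26, 4.41 and 3.97 against 5.32, 9.79 and 9.07 TPM. The sides did not overlap at any day. Over all days it rose by 1.18 (SE 0.17), with a limma adjusted p of 0.00059, and it was higher in 9 of 9 mice. By day the difference was 1.71 (SE 0.28), 1.02 (SE 0.18) and 0.82 (SE 0.23), and none of the 3 was called (limma adjusted p 0.47, 0.061 and 0.20). It was called at day 1 in the fit of all 18 samples (limma adjusted p 0.0082). At day 3 it was called with muscle-marker scaling (limma adjusted p 0.025) or by its highest transcript (0.045). Those fits called 30 of 14776, 431 of 14943 and 160 of 14483 genes. The change from day 1 to day 7 was -0.89 (SE 0.36), with an adjusted p of 0.64 by limma.

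Tgfbr1, the type I receptor for TGF-beta that can also serve myostatin, was the gene of the list whose effect passed the test of a difference between days. At day 1 it had 9.55, 8.09 and 8.91 TPM sham and 8.68, 9.99 and 9.07 TPM denervated, which overlapped. At day 3 it had 10.2, 8.8 and 7.53 against 27, 21.3 and 17.8 TPM, and at day 7 it had 9.49, 10.9 and 10.4 against 15.3, 14.3 and 14.3 TPM. It rose by 1.26 (SE 0.18) at day 3, with a limma adjusted p of 0.032, and that effect was 1.20 (SE 0.19) larger than at day 1, with an adjusted p of 0.023 by limma. That difference between days was not called with equal-sum or muscle-marker scaling. It was also lost without day 1 replicate 2 or 3, day 3 replicate 2 or any mouse of day 7. Over all days it rose by 0.60 (SE 0.14), with a limma adjusted p of 0.027 that became 0.076 with mouse as a block. Leaving out any day 3 mouse ended the day 3 call, and the call over all days was lost without day 1 replicate 2 or any mouse of days 3 and 7.

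Tgfb3, a TGF-beta ligand gene, had 11.1, 12 and 11.7 TPM sham and 20.7, 18 and 20 TPM denervated at day 7. It rose by 0.73 (SE 0.11) there and by 0.46 (SE 0.10) over all days, with limma adjusted p-values of 0.030 and 0.020. With mouse as a block these were 0.053 and 0.051, so both calls were lost. The day 7 call was also lost without any 1 mouse of that day, and the call over all days without day 1 replicate 2, day 3 replicate 2 or 3, or any mouse of day 7. At day 1 the sides overlapped.

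**Figure D5:**
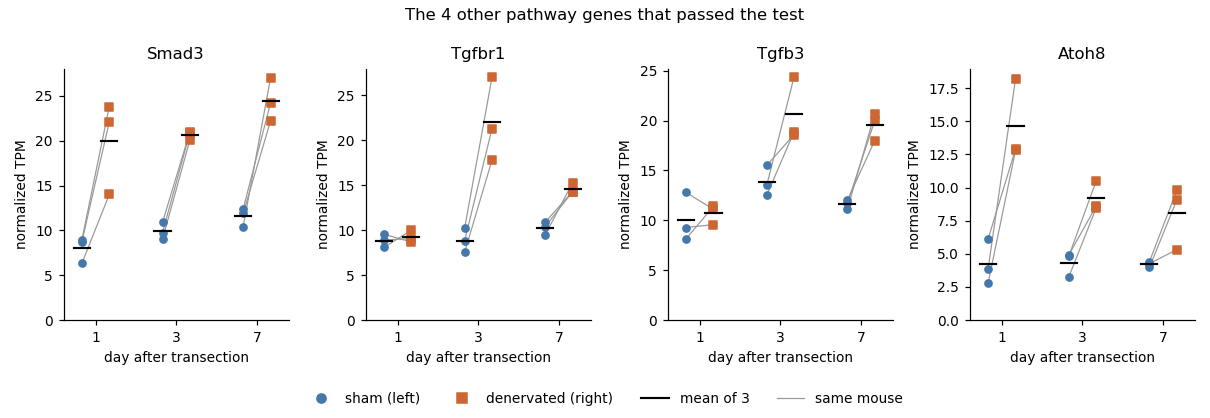
Normalized TPM of Smad3, Tgfbr1, Tgfb3 and Atoh8 against day, with circles for sham, squares for denervated samples, grey lines joining the sides of 1 mouse and black bars at means of 3. Smad3 and Atoh8 are separated at all 3 days, and Tgfbr1 only from day 3 on.

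By role, few genes were called, and the genes shown here beside them are the most abundant ones. Over all days 6 of 14 BMP and GDF ligands were tested, and none was called there or at a single day. The most abundant were Bmp4 (25.3 TPM on average; -0.20, SE 0.10, over all days) and Bmp7 (24.6 TPM; -0.12, SE 0.10). Of 10 activin, TGF-beta and related ligands 6 were tested over all days and only Tgfb3 was called, and Tgfb1 and Tgfb2 differed by 0.19 (SE 0.12) and 0.07 (SE 0.14). Of 15 receptors 14 were tested over all days and only Tgfbr1 was called, while endoglin (Eng) and Bmpr1a, the most abundant, differed by -0.02 (SE 0.14) and 0.02 (SE 0.08). Of 19 extracellular inhibitors 14 were tested over all days and none was called, decorin (Dcn, 809 TPM) at 0.13 (SE 0.19) and Nbl1 at 0.24 (SE 0.08) included. Of 14 SMADs and regulators 13 were tested over all days and only Smad3 was called, with Ppm1a, a SMAD phosphatase gene, at 0.02 (SE 0.08) and Tob1 at 0.12 (SE 0.09). Among the targets Msx2 and Id4, a further Id family gene, differed by -0.36 (SE 0.25) and -0.05 (SE 0.10). At day 3 Bmp4 differed by -0.53 (SE 0.17) and Msx2 by -0.83 (SE 0.23), with limma adjusted p-values of 0.22 and 0.17. At that day the summed hair follicle markers were 0.15 to 0.882 times the sham level, lower in all 3 mice, and their part in these differences was not tested.

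Marker lists of other cells moved at day 7 as well, a day at which Smad3 and Tgfb3 were called. Summed macrophage markers were 1.38 to 1.99 times, fibroblast markers 1.25 to 1.73 times, keratinocyte markers 1.03 to 1.39 times and adipocyte markers 1.07 to 1.3 times the sham level, each higher in all 3 mice. Schwann cell markers were 0.465 to 0.821 times the sham level, lower in all 3 mice. At day 3, when Smad3 was also called, macrophage ratios were 0.719 to 2.57 and fibroblast ratios 0.694 to 1.41, on both sides of 1. At day 1, when Smad3 was higher in 3 of 3 mice, these ratios were 0.405 to 1.68 and 0.65 to 2.14. Their part in the differences of Smad3, Tgfbr1, Tgfb3 and Atoh8 was not tested.

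Some pathway genes that did not pass are named with their values already seen, for their known roles beside Gdf5 or the size of their differences. Chrdl2 and Chrd encode chordin-type BMP traps. Chrdl2 differed by 1.14 (SE 0.24) at day 3 and 1.31 (SE 0.28) at day 7, each with a limma adjusted p of 0.093, and it was called at day 7 in the fit of all 18 samples (limma adjusted p 0.037) and at both days with muscle-marker scaling (0.035 and 0.036). Chrd differed by 1.14 (SE 0.30) and 0.96 (SE 0.29) at these days, with limma adjusted p-values of 0.16 and 0.24. It was called at day 3 with muscle-marker scaling (limma adjusted p 0.018). That scaling called 431 of 14943 genes at day 3 and 258 of 15081 at day 7. It set the median of all genes at 0.35 and 0.24. Gdf6, a ligand closely related to Gdf5, was tested only at day 7 and differed by 1.01 (SE 0.26), with a limma adjusted p of 0.15. It was called there in the fit of all 18 samples (limma adjusted p 0.021) and without the variance trend (0.024). These fits called 267 and 212 of 15081 genes at day 7. Bmpr1b, the type I receptor that Gdf5 prefers, was higher in 8 of 9 mice, by 0.43 (SE 0.13) over all days, with a limma adjusted p of 0.10. Without day 1 replicate 1 it was 0.53, with a limma adjusted p of 0.021, in a fit that called 692 of 14772 genes. Fbxo30, a ubiquitin ligase gene that BMP signalling is known to hold down in denervated muscle, differed by 0.51 (SE 0.15) at day 7, with a limma adjusted p of 0.22, and was higher in 7 of 9 mice. Smad1 and Smad5, which carry BMP signals, differed by 0.09 and 0.05 over all days, and neither was called. Other uncalled genes of the list went down. Dlx5 (-0.35), Inha (-0.31), Msx1 (-0.29), Bmp2 (-0.21), Rgma (-0.12) and Fstl3 (-0.12) were each lower in 8 of 9 mice. Skil (0.28) and Twsg1 (0.13), also uncalled, were each higher in 8 of 9 mice, as Bmpr1b was. The share of all genes with so even a direction was not counted.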

How the data were processed

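RNA was sequenced from 18 whisker pad samples: denervated and sham sides of 9 mice, 3 at each day. The authors trimmed and deduplicated the reads, quantified them with kallisto 0.43.1 against the Ensembl GRCm38 cDNA set and deposited 1 table of TPM per transcript, a signal normalized between samples (the columns sum to 833185 to 1143839, so they are not plain TPM). Read counts were not used. The kit does not mark strand.

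Transcript TPM was added per gene with GENCODE M21 names (98.46% of 113194 transcripts matched, 99.48% of the summed values). Depth was estimated from the step of low values (74.8% to 86.7% of them within 0.1 of a whole number of reads); it is approximate. Genes that reached 1 TPM in 47% or more of the samples compared were tested with limma 3.58.1 (R 4.3.3) on log2(TPM + 0.5), with a variance trend, in the 6 samples of each day, without a mouse term, as the study did, or over all 18 samples with day. p-values were adjusted over all genes (Benjamini-Hochberg, 0.05). Day effects were compared by interaction contrasts, and single genes by an exact two-sided sign-flip test over 9 mice. Fits were also run on simulated data, which had no mouse effect. That run could therefore not test the fit without a mouse term on paired samples. Sides come from 1 mouse by the sample names, and same-mouse samples deviated together (correlations 0.13 to 0.51), so mouse as a block was an alternative.

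All 10 members are named. Other pathway genes are named where called, otherwise the 2 per role with the highest mean TPM, with exceptions marked, and 5 genes by their likeness to Gdf5. Members and lists were chosen with earlier results of these data known. Alternatives covered the pseudocount, the TPM filter, scaling, the block, the trend, 1 fit of all samples, the highest transcript and each mouse left out. Figures were drawn with matplotlib.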

Additional observations from a re-analysis of the deposited data

Results flagged for a closer look

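The within-mouse difference of Mstn in day 1 replicate 3 was -2.57 on the log2 scale, apart from the other 8 mice by 0.55 of the whole range (sham 33.1 TPM, denervated 5.18 TPM). That of Id2 in day 7 replicate 1 was 0.46, apart from the rest by 0.53 of the range (sham 67.1 TPM, denervated 92.2 TPM). Chance flags about 1 in 20 such groups, and 10 genes were examined. Nog was lower on the denervated side in all 3 mice at day 1 and higher in all 3 at day 3. The difference of 0.59 between these days had a limma adjusted p of 0.62.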

How the results depend on the processing

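The alternatives moved some counts of called genes by over 1.5 times. Of the 10 members, 1 rather than 0 was called at day 1, namely Gdf5, with muscle-marker scaling or when all 18 samples shared 1 fit, and 2 at day 7 in the latter, namely Gdf5 and Fst. Over all days 0 were called with TPM of at least 5, because Gdf5 was then not tested, and 1 to 2 without 1 mouse. For days 3 and 7 the count without 1 mouse was 0 to 1. Of the 80 other pathway genes, 2 were called at day 1 and 4 at day 7 in the fit of all 18 samples. With muscle-marker scaling 6 were called at day 3, and with mouse as a replicate block 1 at day 7. In the fit of all 18 samples, 30 of 14776 genes were called at day 1 and 267 of 15081 at day 7. Muscle-marker scaling called 21 of 14776 genes at day 1 and 431 of 14943 at day 3. The block called 328 of 15081 genes at day 7. Over all days 2 of the 80 were called with muscle-marker scaling (179 of 14757 genes) and 2 with the block (517 of 14757 genes). Smaller moves were to 3 at day 7 without the trend or with muscle-marker scaling, 3 at day 3 by the highest transcript and 3 over all days with equal-sum scaling. Without 1 mouse the pathway count was 0 at days 3 and 7 and 2 to 5 over all days. Of all genes tested without 1 mouse, 0 to 133 were called at day 3, 1 to 127 at day 7 and 227 to 692 over all days. Of the single-gene values, 558 stayed close with the same sign, 37 moved with the same sign, 4 gained and 4 lost a call, and 12 that moved and 27 that stayed close, all uncalled, changed sign. No called difference reversed under an alternative, and the block changed no call other than those of Tgfb3 and Tgfbr1. Muscle-marker scaling set the median of all genes above 0 (0.22 on day 1, 0.35 on day 3, 0.24 on day 7). The cause of these changes was not tested. A fit without 1 mouse also has fewer samples, and the mouse and the sample number cannot be told apart there. Depth limits Gdf5 on the sham side (0 to 18 reads) and Acvr2b (14 to 63 reads).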
